A study of Cavia porcellus with 10 samples.

Results

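Epithelial cells keep their identity through a small set of regulators, and 10 of these are described here in the guinea pig cervix before and during pregnancy: TP63, OVOL1, GRHL1, GRHL2, GRHL3, KLF5, ELF3, EHF, ESRP1 and FOXA1. They were chosen by gene name from the 25028 genes of the deposited table, and each name had a single row. The tissue was the vaginal portion of the cervix of Hartley guinea pigs, from 3 non-pregnant females in estrus (NP), 3 females at mid-pregnancy (MT, 43.6 ± 0.5 days of gestation, SD) and 4 in late pregnancy (LT, 65.2 ± 1.2 days). The LT animals were not in labor, gestational age was estimated from the fetuses at harvest, and no animal had a transgene or a drug treatment in the labels. Each library is a separate animal, and whole tissue was sequenced as polyA RNA with single strand-specific reads of 75 bases. The study asks how the cervix is remodeled toward birth in a species in which serum progesterone does not fall, and the comparisons follow its stages: NP to MT, MT to LT, and NP to LT.

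The cervix joins 2 kinds of epithelium, which is why these genes are of interest in it. A stratified squamous epithelium faces the vagina and renews itself from a basal layer, and a simple columnar epithelium lines the canal and its mucus-secreting crypts. TP63 is the master regulator of the basal layer, OVOL1 and the grainyhead-like factors GRHL1 and GRHL3 act in differentiating squamous cells and in barrier formation, and GRHL2 maintains junction genes in simple epithelia. KLF5 is a zinc finger factor of proliferating epithelia, ELF3 and EHF are ETS factors restricted to epithelia, and FOXA1 is a forkhead pioneer factor of glandular epithelia. ESRP1 is not a transcription factor but an RNA-binding protein that directs epithelial splicing, so 9 of the 10 genes are transcription factors and 1 is a splicing regulator.

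Levels are given in TPM, the length-normalized abundance of transcripts, which divides the counted reads by gene length and sums to the same total in every animal, so levels of different genes may be compared. Between 18730665 and 27881572 reads were counted on genes per animal. Changes are differences of log2(TPM + 1), the later stage minus the earlier, with a standard error (SE) from limma, fitted to all 10 animals and 12645 genes, and P-values are adjusted over those genes. The addition of 1 TPM makes changes of low genes smaller. The 3 comparisons share their animals and are not independent of each other. All 10 regulators passed the filter, which asked for a stage mean of 3 TPM or more, and FOXA1 did so only through its NP mean. Stromal genes were far above epithelial ones: the smooth muscle gene ACTA2 was at 5823 TPM and the collagen gene COL1A1 at 4943 TPM over the 10 animals, against 169 TPM of the epithelial cadherin CDH1. In such bulk tissue, fewer cells of a type and less RNA per cell cannot be told apart.

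Among the NP libraries, replicate 1 stood apart. NP replicate 1 had the highest TPM of the 10 animals for TP63, GRHL1, GRHL3, KLF5, ELF3 and FOXA1, and its FOXA1 was 5.72 times, its GRHL3 3.07 times and its GRHL1 2.18 times what the remaining NP animals averaged. The 6 squamous markers with a row summed to 3935 TPM in it and to 1168 and 1276 TPM in the other NP animals, while the 7 leukocyte markers summed to 144 TPM against 295 and 378 TPM. It was the lowest of the NP animals for GRHL2 and EHF. Regulators called in a comparison with the NP stage are therefore given with and without NP replicate 1. MT replicate 1 also departed from its stage. The 6 squamous markers summed to 1603 TPM in it, against 246 and 538 TPM in the other MT animals. Its GRHL3 was at 8.62 TPM, against 1.59 and 3.54 TPM.

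Most of these regulators were expressed in every animal, and their order was similar in the 3 stages. In NP the means ran from ELF3 (185 TPM) over EHF (168 TPM), KLF5 (103 TPM), ESRP1 (42.4 TPM), TP63 (39.2 TPM), GRHL2 (35.9 TPM), GRHL3 (12.7 TPM), GRHL1 (11.5 TPM) and OVOL1 (4.26 TPM) to FOXA1 (4.23 TPM). Of the neighbours in this order, the animals overlapped for ELF3 and EHF, for ESRP1 and TP63, for TP63 and GRHL2, for GRHL3 and GRHL1, and for OVOL1 and FOXA1. In both MT and LT, EHF came before ELF3 with no overlap between their animals, ELF3 and KLF5 overlapped, and FOXA1 was last with no overlap with its neighbour. GRHL3 was below GRHL1 and OVOL1 in the order of the MT means, with overlapping animals, and above both in LT.

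**Figure D1:**
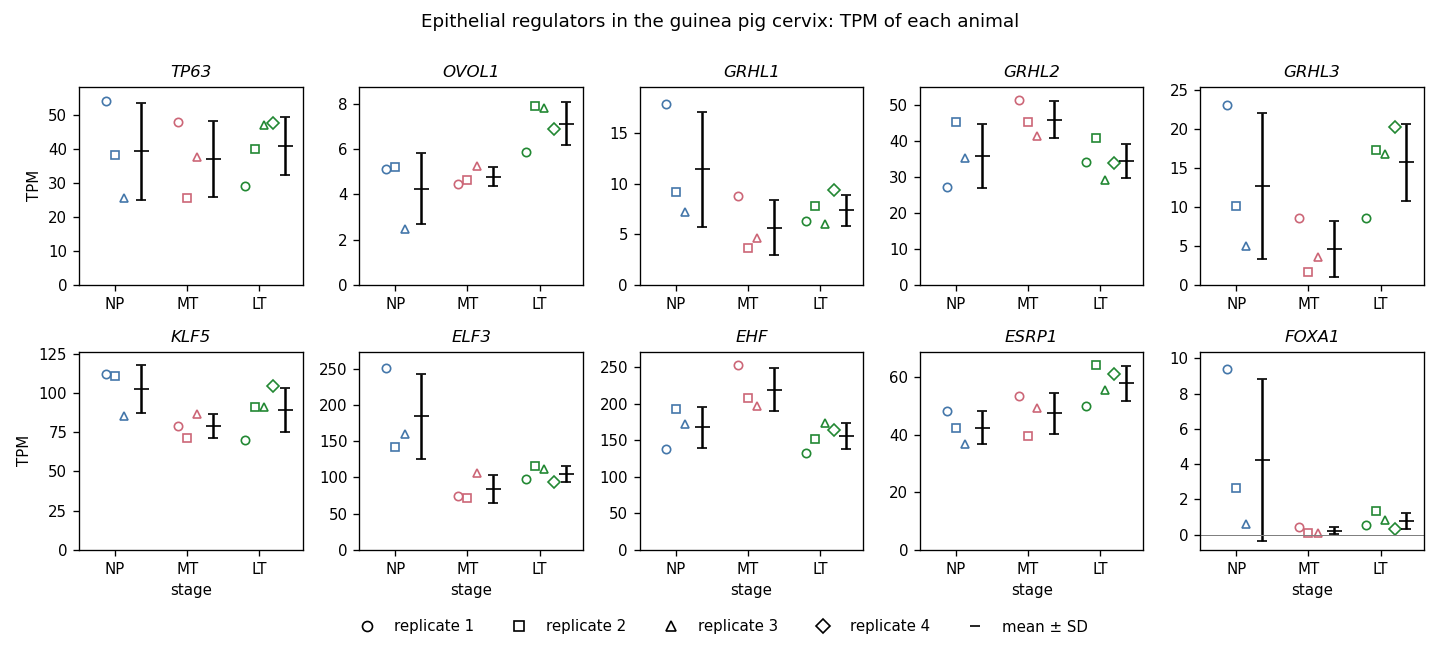
TPM (vertical axis of each panel) of each regulator in the NP, MT and LT animals (horizontal axis). Open symbols are animals, with 1 shape per replicate number, and black bars are the mean ± SD of a stage (n = 3, 3 and 4). ELF3 is highest in the 3 NP animals, EHF in the 3 MT animals, OVOL1 in the 4 LT animals, and FOXA1 lies under 1.5 TPM in every pregnant animal.

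From NP to MT, 1 of the 10 regulators changed, and it fell: ELF3. This is below the share of all genes tested with an adjusted P under 0.05, which was 18.5%. From MT to LT, GRHL3 rose and EHF fell, 2 of 10 against 29.4% of all genes. From NP to LT, OVOL1 and ESRP1 rose and ELF3 fell, 3 of 10 against 53.1% of all genes. Over the 3 stages together the limma F test passed for OVOL1, GRHL3, ELF3, EHF and ESRP1, 5 of 10 against 55.4% of all genes. The animals of 2 stages did not overlap for 3 of the 10 regulators in each comparison, where the shares of all genes were 34.9% from NP to MT, 46.3% from MT to LT and 52.4% from NP to LT. Without NP replicate 1 the counts were 1, 3 and 3, against 33.1%, 42.1% and 61.3% of all genes, the additional one being GRHL2, which fell from MT to LT, and FOXA1 was not tested. These shares by limma are at or below those of all genes. For the step from NP to MT, 3 of 10 were called with median-ratio scaling, 4 with edgeR and 4 with DESeq2, against 18.1%, 18% and 24.7% of all genes. The counts are not a result about the group, and the genes are described singly.

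The median log2 change of the 10 regulators was -0.22 from NP to MT, 0.31 from MT to LT and -0.07 from NP to LT, against -0.14, -0.16 and -0.28 over all genes tested. Because TPM sums to a constant, these shifts of all genes depend on the scaling between animals. After scaling by the median ratio of each animal to the geometric mean of each gene, the medians of all genes were -0.02, 0.00 and 0.00. The calls over all genes then turned from 793 higher and 1549 lower to 1313 and 979 from NP to MT, from 851 and 2872 to 1776 and 1939 from MT to LT, and from 1417 and 5301 to 3128 and 3157 from NP to LT. With edgeR on the read counts these were 1271 and 1009, 1696 and 1971, and 2990 and 3257. The calls of regulators that turn on this scaling are named with each gene.

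**Figure D2:**
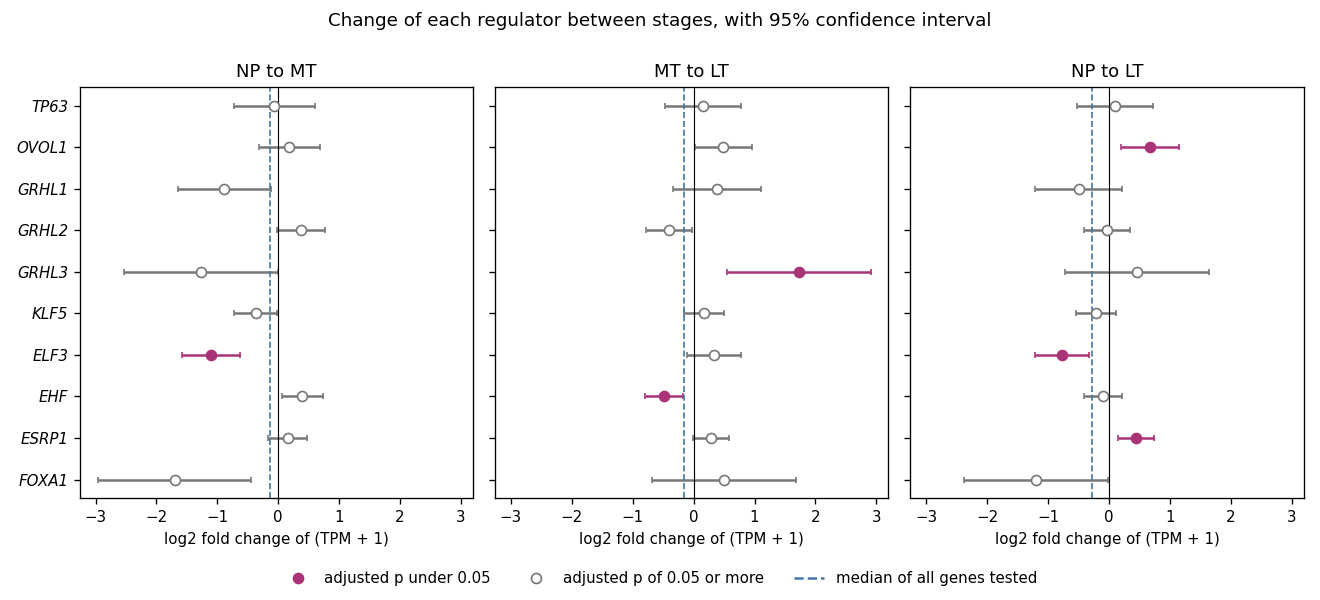
Log2 change of TPM + 1 (horizontal axis) of each regulator (vertical axis) from NP to MT, from MT to LT and from NP to LT. Points are limma estimates with 95% confidence intervals, filled where the adjusted P is under 0.05. The dashed line is the median of all 12645 genes tested, at -0.14, -0.16 and -0.28. ELF3 lies left of both lines from NP to MT and from NP to LT, and GRHL3 has the widest interval of the called genes.

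ELF3 and EHF are closely related ETS factors, and their levels took different courses. ELF3 (ENSCPOG00000022807), an early response factor of epithelial differentiation and inflammation, was at 251, 142 and 160.3 TPM in the NP animals, at 73.9, 71.9 and 106 TPM in the MT animals, and at 97.4, 116, 112 and 94.1 TPM in the LT animals. Every pregnant animal was below every NP animal. The mean fell from 185 ± 58.6 TPM (SD, n = 3 NP animals) to 83.9 ± 19.2 TPM (SD, n = 3 MT animals), a log2 change of -1.11 (SE 0.21, limma adjusted P = 0.00792). Without NP replicate 1 the change was -0.86 (adjusted P = 0.008), and all 19 alternative settings kept the call.

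In LT the mean of ELF3 was 105 ± 10.6 TPM (SD, n = 4), again below NP. The log2 change from MT to LT was 0.33 (SE 0.20, limma adjusted P = 0.228), with overlapping animals. From NP to LT it was -0.77 (SE 0.20, adjusted P = 0.00951), and -0.53 without NP replicate 1 (adjusted P = 0.0197). This call depended on the scaling: the value was -0.48 with median-ratio scaling (adjusted P = 0.123), -0.56 with edgeR (adjusted P = 0.0844) and -0.55 with DESeq2 (adjusted P = 0.0623).

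EHF (ENSCPOG00000012596), an ETS factor of glandular and squamous epithelia, was at 137, 193 and 172 TPM in NP, at 253, 208 and 198 TPM in MT, and at 133, 152, 174 and 165 TPM in LT. The 3 MT animals were the highest of the 10. The mean was 168 ± 28.1 TPM (SD, n = 3 NP animals), 219 ± 29.2 TPM (SD, n = 3 MT animals) and 156 ± 17.6 TPM (SD, n = 4 LT animals). From NP to MT the log2 change was 0.39 (SE 0.15, limma adjusted P = 0.0944). With median-ratio scaling it passed at 0.52 (adjusted P = 0.029), as it did with edgeR (0.52, adjusted P = 0.0305) and DESeq2 (0.52, adjusted P = 0.00394).

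From MT to LT EHF fell by 0.49 on the log2 scale (SE 0.14, limma adjusted P = 0.0275). The same scaling choices had the opposite effect here: the value was -0.32 with median-ratio scaling (adjusted P = 0.0847), with edgeR (adjusted P = 0.0893) and with DESeq2 (adjusted P = 0.0631). The call was also lost without MT replicate 1 (-0.38, adjusted P = 0.0933), MT replicate 2 (-0.52, adjusted P = 0.0652), LT replicate 1 (-0.42, adjusted P = 0.0584) or LT replicate 2 (-0.48, adjusted P = 0.0604). From NP to LT it was -0.10 (adjusted P = 0.587), with the sign turned under the other scalings.

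The ratio of ELF3 to EHF within an animal does not depend on the scaling between animals. It was 1.83, 0.736 and 0.932 in NP, 0.293, 0.345 and 0.537 in MT, and 0.731, 0.759, 0.645 and 0.572 in LT. All MT animals were below all animals of NP and LT. In the exact permutation test of the mean ratio (two-sided), P was 0.1 from NP to MT, the smallest that 3 animals against 3 allow, and 0.0286 from MT to LT, the smallest that 3 against 4 allow. Between NP and LT, where the animals overlapped, it was 0.0571. After adjustment over the 6 tests of this ratio and of the GRHL3 share, these permutation P-values were 0.15, 0.114 and 0.114. Both quantities were chosen for testing after their values were seen, so these P-values are a description and no independent support.

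The GRHL genes are 3 members of a single family, and GRHL2 was the most abundant of them in each mean. GRHL2 (ENSCPOG00000005630) was at 27.3, 45.2 and 35.1 TPM in NP, at 51.3, 45.3 and 41.2 TPM in MT, and at 34.1, 40.8, 29.2 and 34.0 TPM in LT. All MT animals were above all LT animals, while NP overlapped with both stages. Its log2 change was 0.37 (SE 0.18, limma adjusted P = 0.169) from NP to MT, -0.41 (SE 0.17, adjusted P = 0.0912) from MT to LT and -0.04 (SE 0.17, adjusted P = 0.874) from NP to LT. The value from NP to MT passed with median-ratio scaling (0.49, adjusted P = 0.0436), edgeR (0.49, adjusted P = 0.0465) and DESeq2 (0.50, adjusted P = 0.0156). The value from MT to LT passed when NP replicate 1 was left out (adjusted P = 0.0363) and with only MT and LT fitted (adjusted P = 0.0356), and was -0.24 under median-ratio scaling, edgeR and DESeq2 (adjusted P = 0.201, 0.202 and 0.215).

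GRHL3 (ENSCPOG00000008841), which is required for the skin barrier and regulates the cornified envelope enzyme TGM1, was the most variable of the 3. It was at 23.1, 10.1 and 4.92 TPM in NP, at 8.62, 1.59 and 3.54 TPM in MT, and at 8.59, 17.2, 16.7 and 20.2 TPM in LT. The lowest LT animal lay just under the highest MT animal, and the NP animals overlapped with both stages. GRHL3 rose from 4.59 ± 3.63 TPM (SD, n = 3 MT animals) to 15.7 ± 4.97 TPM (SD, n = 4 LT animals), a log2 change of 1.73 (SE 0.53, limma adjusted P = 0.0347).

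The size of the rise was 1.28 to 2.22 whichever animal was left out, and 11 of 19 alternative settings kept the call, such as median-ratio scaling (1.88, adjusted P = 0.0331) and DESeq2 (1.95, adjusted P = 0.0071). Without MT replicate 2 it was 1.28 (adjusted P = 0.142), and without MT replicate 3 it was 1.68 (adjusted P = 0.0887). Without LT replicate 2, 3 or 4 it was 1.66 (adjusted P = 0.0737), 1.68 (adjusted P = 0.0779) and 1.59 (adjusted P = 0.0832). It was 1.96 with edgeR (adjusted P = 0.0548), and 1.73 with adjusted P = 0.0559 when no gene was filtered. The log2 change was -1.27 (SE 0.57, adjusted P = 0.141) from NP to MT and 0.46 (SE 0.53, adjusted P = 0.485) from NP to LT.

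GRHL1 (ENSCPOG00000010783), a regulator of desmosomal cadherins, was at 18.0, 9.21 and 7.26 TPM in NP, at 8.80, 3.64 and 4.60 TPM in MT, and at 6.29, 7.79, 6.05 and 9.38 TPM in LT. The stages overlapped in each comparison. Its log2 change was -0.88 (SE 0.34, limma adjusted P = 0.0995) from NP to MT, 0.38 (adjusted P = 0.386) from MT to LT and -0.50 (adjusted P = 0.214) from NP to LT. From NP to MT it was -0.53 without NP replicate 1 (adjusted P = 0.199), and it passed without MT replicate 1 (-1.20, adjusted P = 0.0394).

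Within the family, the summed TPM of GRHL1, GRHL2 and GRHL3 lay between 47.3 and 68.7 in all 10 animals, with overlap between all stages. The shares of the genes in this sum varied between animals. GRHL3 made up 33.8%, 15.7% and 10.4% of this sum in NP, 12.6%, 3.15% and 7.17% in MT, and 17.5%, 26.2%, 32.2% and 31.8% in LT. Each LT animal was above each MT animal. The exact permutation test of the mean share (two-sided) gave P = 0.0571 from MT to LT, P = 0.2 from NP to MT and P = 0.343 from NP to LT, and 0.114, 0.24 and 0.343 after adjustment over the same 6 tests. GRHL2 made up 40.0%, 70.1% and 74.2% in NP, 74.6%, 89.7% and 83.5% in MT, and 69.6%, 62.0%, 56.2% and 53.4% in LT.

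The summed level of squamous epithelium markers, most of which is KRT14, was set beside GRHL3. The summed TPM of the 6 markers with a row (KRT14, DSG3, TRIM29, SFN, PKP1 and IVL) was 3935, 1276 and 1168 in NP, 1603, 246 and 538 in MT, and 1805, 2860, 3149 and 3638 in LT. NP replicate 1 was the highest of the 10 in both GRHL3 and this sum, LT replicate 4 was next in both, and MT replicates 2 and 3 were the lowest in both. Of the 6 markers, 5 had an unadjusted P under 0.05 from MT to LT, all with higher levels in LT. Over all genes, 5473 of 12645 had such a P, in either direction. Limma and edgeR called 1 of the 6 and DESeq2 2, where limma called 29.4% of all genes. By limma, KRT14 rose, by 2.50 on the log2 scale (limma adjusted P = 0.0184, and 0.0648 and 0.0514 without MT replicates 2 and 3), and IVL, a cornified envelope protein, had means of 53.3, 2.55 and 0.528 TPM in NP, MT and LT. IVL passed the filter only through NP, where it was high, so its comparisons with NP are given as values alone. From MT to LT IVL went the other way from GRHL3, at -1.24 (adjusted P = 0.149) with all LT animals below all MT animals. None of these markers is at 0 in all animals, and KRT5, KRT6A, KRT13, KRT15, KRT4 and DSC3 have no row under these names and were not analysed here. The part of the amount of squamous epithelium in the GRHL3 values was not tested.

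**Figure D3:**
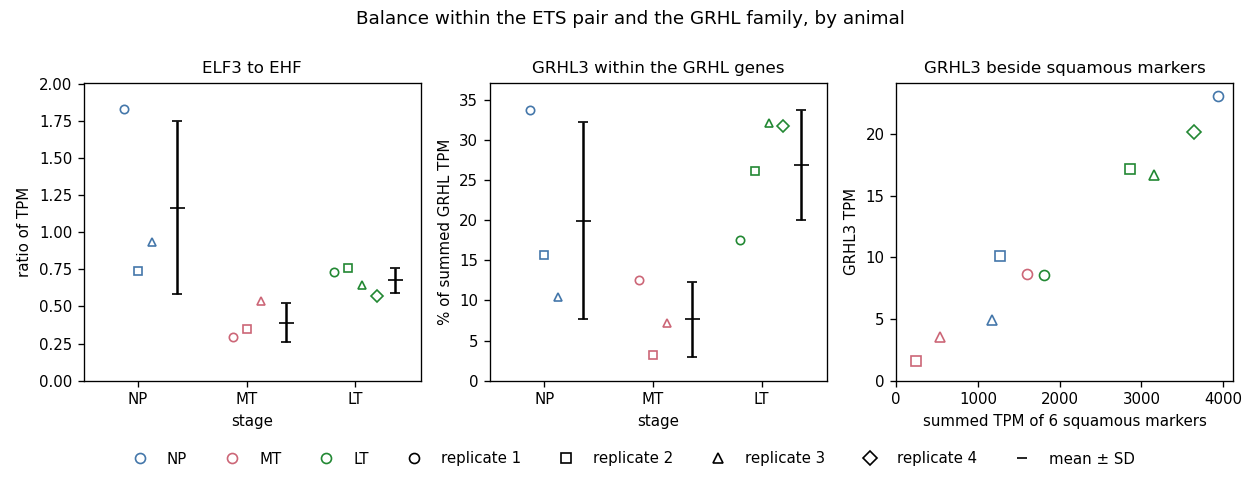
The left panel plots the ratio of ELF3 to EHF TPM and the middle panel the percent of the summed GRHL1, GRHL2 and GRHL3 TPM that is GRHL3, for each animal by stage, with the mean ± SD in black (n = 3, 3 and 4). The right panel plots GRHL3 TPM against the summed TPM of 6 squamous markers in the 10 animals, with stages by colour and replicates by shape. MT animals have the lowest ELF3 to EHF ratios, at 0.293 to 0.537, and LT animals a GRHL3 share above every MT animal.

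TP63 (ENSCPOG00000014770), which encodes p63 and marks the basal layer of stratified epithelium, had nearly equal means in the 3 stages. It was at 54.0, 38.2 and 25.5 TPM in NP, at 47.9, 25.5 and 37.7 TPM in MT, and at 29.0, 39.9, 46.9 and 47.4 TPM in LT. The animals of each stage covered nearly the same range. Its log2 change was -0.06 from NP to MT (95% confidence interval -0.73 to 0.60, limma adjusted P = 0.901), 0.16 from MT to LT (-0.47 to 0.78, adjusted P = 0.699) and 0.09 from NP to LT (-0.53 to 0.72, adjusted P = 0.796).

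KLF5 (ENSCPOG00000001346) was at 112, 111 and 85.2 TPM in NP, at 78.7, 71.2 and 86.5 TPM in MT, and at 70.2, 90.8, 90.8 and 104.5 TPM in LT. The highest MT animal exceeded the lowest NP animal by little, and the LT animals overlapped with both stages. Its log2 change was -0.37 from NP to MT (SE 0.16, limma adjusted P = 0.123), 0.16 from MT to LT (SE 0.15, adjusted P = 0.418) and -0.21 from NP to LT (SE 0.15, adjusted P = 0.256), the last with the sign turned under median-ratio scaling.

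OVOL1 (ENSCPOG00000000009) encodes a zinc finger repressor that ends the proliferation of squamous progenitors and restrains the epithelial-mesenchymal transition. It was at 5.12, 5.20 and 2.46 TPM in NP, at 4.44, 4.64 and 5.25 TPM in MT, and at 5.90, 7.91, 7.82 and 6.90 TPM in LT. Every LT animal was above every other animal. These levels rest on 34 to 148 reads per animal. OVOL1 rose from 4.26 ± 1.56 TPM (SD, n = 3 NP animals) to 7.13 ± 0.940 TPM (SD, n = 4 LT animals), a log2 change of 0.67 (SE 0.21, limma adjusted P = 0.0228), and of 0.80 without NP replicate 1 (adjusted P = 0.0124).

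OVOL1 lost this call without NP replicate 3 (0.39, adjusted P = 0.0678), LT replicate 2 (0.62, adjusted P = 0.0587) or LT replicate 3 (0.63, adjusted P = 0.0578). It kept the call under median-ratio scaling (0.91, adjusted P = 0.00774) and with edgeR (1.02, adjusted P = 0.0142). From MT to LT it was 0.49 (SE 0.21, adjusted P = 0.106), which passed with DESeq2 (0.75, adjusted P = 0.0356), with only the animals of MT and LT fitted (adjusted P = 0.0206) and without NP replicate 3 (adjusted P = 0.0293). From NP to MT it was 0.18 (adjusted P = 0.597). Its paralog OVOL2, named here after its values were seen, had means of 4.36, 4.72 and 4.36 TPM in NP, MT and LT and no call in any comparison.

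ESRP1 (ENSCPOG00000012197), which sets the epithelial isoforms of many transcripts, was at 48.2, 42.3 and 36.7 TPM in NP, at 53.3, 39.5 and 49.3 TPM in MT, and at 50.1, 64.2, 55.7 and 61.1 TPM in LT. All LT animals were above all NP animals, and MT overlapped with both. ESRP1 rose from 42.4 ± 5.74 TPM (SD, n = 3 NP animals) to 57.8 ± 6.22 TPM (SD, n = 4 LT animals), a log2 change of 0.44 (SE 0.13, limma adjusted P = 0.0195). It was 0.53 without NP replicate 1 (adjusted P = 0.00934) and 0.73 both with median-ratio scaling (adjusted P = 0.00483) and with edgeR (adjusted P = 0.00551).

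The call of ESRP1 was lost without NP replicate 2 (0.44, adjusted P = 0.0533), NP replicate 3 (0.34, adjusted P = 0.081) or LT replicate 2 (0.39, adjusted P = 0.0529). Its log2 change was 0.15 (adjusted P = 0.469) from NP to MT and 0.29 (adjusted P = 0.131) from MT to LT, the latter passing with DESeq2 (0.46, adjusted P = 0.0329). The paralog ESRP2, named after its values were seen, had means of 24.0, 24.4 and 28.0 TPM and no call, and the ratio of ESRP1 to ESRP2 was 1.60 to 1.96 in NP, 1.68 to 2.18 in MT and 2.03 to 2.10 in LT, with all LT animals above all NP animals.

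FOXA1 (ENSCPOG00000026606) was the least abundant and the most uneven of the 10. It was at 9.40, 2.68 and 0.610 TPM in NP, at 0.449, 0.127 and 0.0935 TPM in MT, and at 0.571, 1.35, 0.815 and 0.309 TPM in LT, from 206, 43 and 11 reads, from 7, 2 and 2 reads, and from 13, 33, 20 and 7 reads. All MT animals were below all NP animals, and the NP stage mean of 4.23 ± 4.59 TPM (SD, n = 3) is set by NP replicate 1. The 95% Poisson intervals of counting error of the lowest NP animal (0.304 to 1.09 TPM) and the highest MT animal (0.181 to 0.926 TPM) overlapped.

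The log2 change of FOXA1 was -1.70 from NP to MT (SE 0.57, limma adjusted P = 0.0625), 0.50 from MT to LT (SE 0.53, adjusted P = 0.495) and -1.20 from NP to LT (SE 0.53, adjusted P = 0.0808). Since it entered the tests only through the stage in which it was high, these and the following P-values of its NP comparisons are a description of the fits and no support for a difference. It passed from NP to MT with a pseudocount of 0.1 (-3.20, adjusted P = 0.042), with edgeR (-4.24, adjusted P = 0.0282), with DESeq2 (-4.24, adjusted P = 0.000435) and without NP replicate 3 (-2.35, adjusted P = 0.0118). From NP to LT it passed with edgeR (-2.27, adjusted P = 0.0462), with DESeq2 (-2.28, adjusted P = 0.0234) and without NP replicate 3 (-1.85, adjusted P = 0.00884). Without NP replicate 1 its NP mean was 1.64 TPM, no stage reached 3 TPM, and the gene was not tested.

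The other regulators of epithelial fate in the list, 15 of 18 tested, included several of the columnar and secretory lineage. SPDEF, FOXA2 and GATA3 rose from NP to MT, 3 of 15 against 18.5% of all genes. From MT to LT none passed by limma, edgeR called 0 and DESeq2 2, against 29.4%, 29% and 36.2% of all genes. Of the 15, 5 had an unadjusted P under 0.05 from MT to LT, as had 5473 of 12645 genes. From NP to LT 6 of 15 passed, against 53.1% of all genes. Among them KLF4, SPDEF, FOXA2 and FOXA3 rose and PAX8 fell. These counts are not a result about the list. SPDEF, an ETS factor of mucus-secreting goblet cells, went from 1.07 ± 1.26 TPM (SD, n = 3 NP animals) to 76.8 ± 13.9 TPM (SD, n = 3 MT animals) and 90.6 ± 11.4 TPM (SD, n = 4 LT animals). Its log2 change from NP to MT was 5.39 (SE 0.35, limma adjusted P = 3.52e-05), and 5.01 without NP replicate 1 (adjusted P = 6.64e-05). SPDEF passed the filter only through MT and LT, where it was high. These P-values are therefore a description of the fits and no support for a difference.

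FOXA2, the relative of FOXA1 that is needed for uterine glands, was at 0.0650, 11.7 and 6.40 TPM in NP, at 37.6, 45.3 and 40.4 TPM in MT, and at 33.3, 22.6, 22.0 and 17.0 TPM in LT. In NP replicate 1, FOXA2 was the lowest and FOXA1 the highest of the 10 animals. FOXA2 rose by 3.18 from NP to MT (SE 0.72, limma adjusted P = 0.0147), and by 2.12 without NP replicate 1 (adjusted P = 0.00176), while the value without MT replicate 3 was 3.19 (adjusted P = 0.0514). FOXA3, a factor of mucous cells, had means of 1.76, 6.24 and 10.1 TPM in NP, MT and LT and passed from NP to LT (1.91, adjusted P = 0.00502). Like SPDEF, FOXA3 passed the filter only through MT and LT, so this P-value is no support for a difference. FOXA2 and FOXA3 were above FOXA1 in every pregnant animal.

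KLF4, which drives the differentiated layers of squamous epithelium and, in mucosae, goblet cells, was at 37.4 ± 11.9 TPM (SD, n = 3 NP animals) and at 155 ± 56.8 TPM (SD, n = 4 LT animals). This is a log2 change of 1.97 (SE 0.36, limma adjusted P = 0.00169), against -0.21 for its relative KLF5. GATA3 had means of 19.0, 36.2 and 24.98 TPM, and rose from NP to MT by 0.92 (adjusted P = 0.0129), with 0.85 and adjusted P = 0.0562 without MT replicate 3. PAX8, a factor of the epithelium of the Müllerian duct, had means of 63.5, 48.3 and 34.9 TPM, and fell from NP to LT by 0.81 (adjusted P = 0.00481). The most abundant gene of the list, TFCP2L1, had means of 76.7, 130.0 and 98.4 TPM, with no call by limma on all animals. Its value for NP to MT was 0.82 (adjusted P = 0.0609), and it passed with DESeq2 (adjusted P = 0.0297) and without NP replicate 1 (1.09, adjusted P = 0.0133). TP73 and SOX2 were under 3 TPM in each stage, SOX9 has no row under that name, and ELF5, the other ETS factor of the ELF3 and EHF group, had means of 13.2, 7.96 and 14.7 TPM with no call (named after its values were seen).

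Repressors of the epithelial state are the counterparts of OVOL1, GRHL2 and ESRP1, and 4 of 7 were tested. SNAI2, which is also found in basal keratinocytes, was at 102, 142 and 137 TPM in NP, at 277, 313 and 375 TPM in MT, and at 233, 199, 144 and 103 TPM in LT. It rose from NP to MT by 1.34 (SE 0.27, limma adjusted P = 0.0098) and fell from MT to LT by 0.98 (SE 0.25, adjusted P = 0.0191), with no overlap between the animals in either case. The latter was lost without MT replicate 2 (-0.99, adjusted P = 0.0588), MT replicate 3 (-0.86, adjusted P = 0.0668) or LT replicate 3 (-0.92, adjusted P = 0.0516). ZEB1 and ZEB2, which repress CDH1 and are expressed in stroma, fell from NP to LT, by 0.64 (adjusted P = 0.00691) and by 0.64 (adjusted P = 0.00333). The fall of ZEB1 did not pass with median-ratio scaling (-0.35, adjusted P = 0.114) or edgeR (-0.34, adjusted P = 0.132), and that of ZEB2 did (-0.36, adjusted P = 0.0423). TWIST2 had means of 39.2, 38.9 and 50.7 TPM and no call by limma on the deposited TPM. TWIST2 and SNAI2 passed from NP to LT with median-ratio scaling (0.65, adjusted P = 0.00763, and 0.65, adjusted P = 0.0424) and with edgeR (0.68, adjusted P = 0.00827, and 0.71, adjusted P = 0.0317), both higher in LT, so that the direction of the list depended on the scaling. SNAI3 was under 3 TPM, and SNAI1 and TWIST1 have no row under these names.

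Known targets of the regulators were tested as a list of 13 genes, which was chosen from textbook knowledge. From NP to MT, 3 fell (DST, CLDN4 and TGM1), from MT to LT KRT14 rose and FRAS1 and DST fell, and from NP to LT PERP and RAB25 rose and FRAS1, DST and TGM1 fell. The 3, 3 and 5 called of 13 stand beside 18.5%, 29.4% and 53.1% of all genes, so that they are not a result about the list. These genes, other than the 3 most abundant, are named after their values were seen. The medians of the list were -0.29, 0.44 and 0.26 on the log2 scale. The p63 targets did not move in 1 direction: from NP to LT the desmosomal gene PERP rose by 1.42 (limma adjusted P = 0.015, and 0.0565 and 0.0649 without NP replicates 2 and 3), the hemidesmosomal and basement membrane genes DST and FRAS1 fell by 1.29 (adjusted P = 0.000119) and by 1.01 (adjusted P = 0.000605), and KRT14 had a change of 0.67 (adjusted P = 0.398). ITGB4, another hemidesmosomal gene of the list, had a change of 0.37 (adjusted P = 0.154), with all LT animals above all NP animals. TP63 itself had no call in any comparison.

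TGM1, the target of GRHL3, was at 135, 34.5 and 7.66 TPM in NP, at 3.25, 1.25 and 3.17 TPM in MT, and at 8.27, 9.45, 5.93 and 9.23 TPM in LT. It fell from NP to MT by 3.34 (SE 0.77, limma adjusted P = 0.0157), and by 2.36 without NP replicate 1 (adjusted P = 0.0123), and the change was -3.04 without MT replicate 2 (adjusted P = 0.0535). From MT to LT, where GRHL3 rose, its change was 1.41 (adjusted P = 0.159), with all LT animals above all MT animals. The fall of TGM1 from NP to LT (-1.93, adjusted P = 0.0446) did not pass without NP replicate 1 (-0.94, adjusted P = 0.13), and passed in 5 of 19 alternative settings, with adjusted P from 0.0536 to 0.104 when any other animal except NP replicate 3 was left out. CLDN4, a junction gene downstream of GRHL2, fell from NP to MT by 0.73 (adjusted P = 0.0301), while GRHL2 had its highest mean in MT. That fall did not pass with median-ratio scaling (-0.60, adjusted P = 0.116) or edgeR (-0.69, adjusted P = 0.0861), nor without MT replicate 1 (adjusted P = 0.058), MT replicate 2 (adjusted P = 0.0859) or MT replicate 3 (adjusted P = 0.0766). RAB25, an epithelial trafficking gene, had means of 129.6, 184 and 223 TPM and rose from NP to LT by 0.79 (adjusted P = 0.00587).

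**Figure D4:**
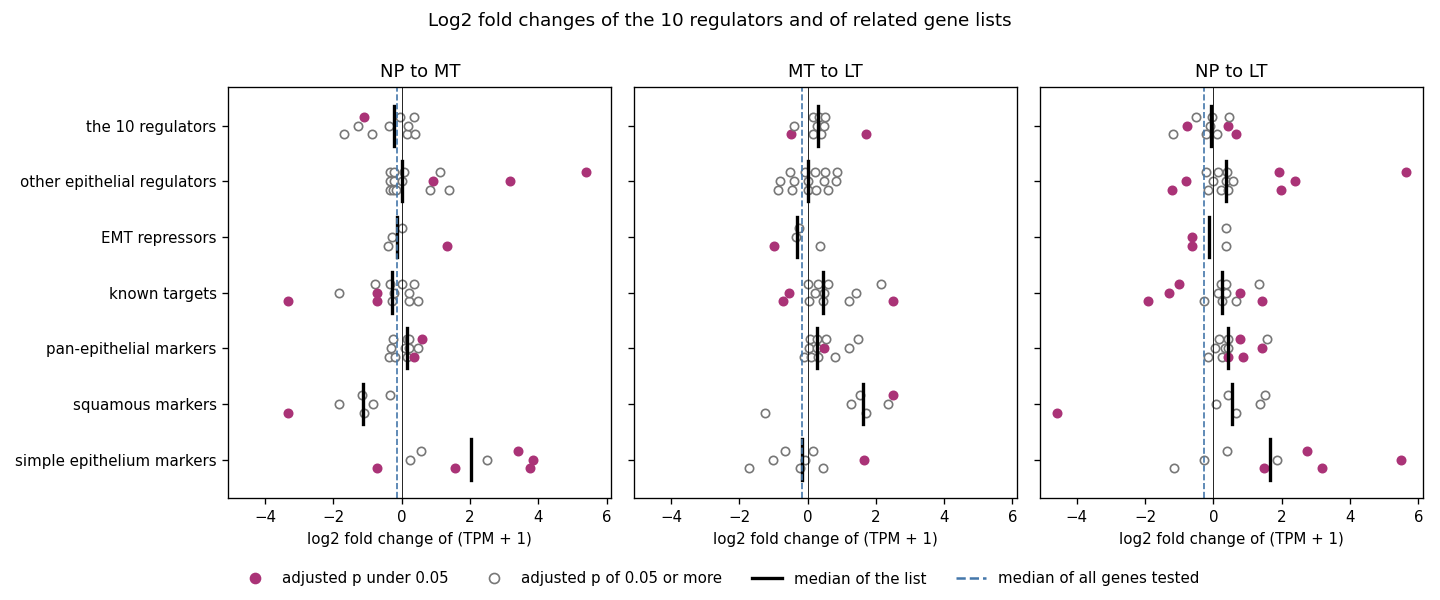
Log2 changes of TPM + 1 (horizontal axis) of the genes of 7 lists (vertical axis) in the 3 comparisons. Each point is a gene, filled where the limma adjusted P is under 0.05, the black line is the median of the list and the dashed line the median of all genes tested. Vertical offsets within a list only separate points. The 10 regulators lie between -1.70 and 1.73, a narrower range than those of the other epithelial regulators, up to 5.63, and of the simple epithelium markers, up to 5.50.

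The amount of epithelium in the samples bears on each level above, and 12 pan-epithelial markers were set beside them. CDH1 was at 150.0 ± 22.1 TPM (SD, n = 3 NP animals), 176 ± 24.99 TPM (SD, n = 3 MT animals) and 179 ± 10.9 TPM (SD, n = 4 LT animals), with no call by limma on the deposited TPM. EPCAM rose from 295 ± 22.6 TPM (SD, n = 3 NP animals) to 375 ± 12.5 TPM (SD, n = 3 MT animals) (0.35, limma adjusted P = 0.0245, and 0.0558, 0.0564 and 0.0851 without NP replicate 2, MT replicate 1 and MT replicate 3), and was at 394 ± 24.7 TPM (SD, n = 4 LT animals). Of the 12 markers, by limma 2 rose from NP to MT (EPCAM and AP1M2), 1 from MT to LT (ST14) and 4 from NP to LT (PERP, RAB25, EPCAM and AP1M2), and none fell, where 6.27%, 6.73% and 11.2% of all genes rose. PERP and RAB25 are also in the list of known targets, so their rises are the same changes as given there. The next counts and shares are of calls in either direction, unlike the shares of genes that rose. With median-ratio scaling, edgeR and DESeq2, the number of the 12 called was 4, 3 and 6 from MT to LT (29.4%, 29% and 36.2% of all genes). From NP to LT it was 8, 7 and 8 (49.7%, 49.4% and 53.7% of all genes), including CDH1 (0.56, 0.53 and 0.54). The call of AP1M2 from NP to MT was lost without any 1 of the MT animals (adjusted P from 0.0514 to 0.0601), and that of ST14 without MT replicate 2 or 3 (adjusted P = 0.0737 and 0.0571). The summed TPM of the 12 ranged from 1760 to 2840 in NP, from 1998 to 2990 in MT and from 2840 to 4134 in LT. SPINT2, a protease inhibitor of epithelia and among the 3 most abundant, had means of 334, 367 and 345 TPM.

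Per 100 TPM of CDH1, ELF3 was at 145, 96.5 and 124 TPM in NP, at 40.5, 48.6 and 54.0 TPM in MT, and at 58.3, 59.8, 63.9 and 51.9 TPM in LT, so that no pregnant animal overlapped with NP. KLF5 per 100 TPM of CDH1 was at 64.6, 75.5 and 65.8 TPM in NP, at 43.1, 48.1 and 44.0 TPM in MT, and at 42.0, 47.0, 51.7 and 57.7 TPM in LT, again with no overlap between NP and pregnancy. ESRP1 per 100 TPM of CDH1 ranged from 27.8 to 28.7 TPM in NP, from 25.1 to 29.2 TPM in MT and from 30.0 to 33.7 TPM in LT, with LT above all other animals. OVOL1 overlapped between NP and LT both per CDH1 and per EPCAM, with LT above MT in each. GRHL3 was higher in LT than in MT without overlap per CDH1, and overlapped per EPCAM. EHF was lower in LT than in MT without overlap per CDH1 and per EPCAM, and per EPCAM its LT animals were also below all NP animals. GRHL1 per CDH1 was lower in every pregnant animal than in every NP animal, and per EPCAM it overlapped between all stages. TP63 overlapped between all stages in both measures, and GRHL2 did so per CDH1, while per EPCAM its LT animals were below all others. Per 100 TPM of EPCAM, ELF3 and KLF5 were also below NP in all pregnant animals, while ESRP1 overlapped between all stages. No test was made on these ratios, and the part of the amount of epithelium in the changes was not tested.

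Levels of some simple epithelium markers also moved with the stages. The 8 simple epithelium markers with a row summed to between 836 and 996 TPM in the NP animals, between 3164 and 5262 TPM in the MT animals and between 7447 and 9090 TPM in the LT animals. From NP to MT, KRT7, PIGR, MUC5B and AGR2 rose and CLDN4 fell, from MT to LT AGR2 rose, and from NP to LT KRT7, PIGR, MUC5B and AGR2 rose. Of the 8 markers, 5 had negative changes from MT to LT, with a median of -0.15, so that the higher sum in LT was that of AGR2. NP replicate 1 had 2.17 TPM of PIGR, 9.86 TPM of MUC5B and 1.83 TPM of CLDN3, where the remaining NP animals averaged 83.8, 109 and 63.5 TPM. Without it the change from NP to MT was 1.83 in place of 3.41 for PIGR and 2.64 in place of 3.75 for MUC5B, and both passed. The call of PIGR from NP to MT was lost without any 1 of the MT or LT animals (adjusted P from 0.0585 to 0.123). The keratin KRT7 had means of 295, 827 and 776 TPM, the secreted mucin MUC5B of 75.8, 729.6 and 340.0 TPM, and the mucin-folding protein AGR2 of 154, 2255 and 6718 TPM. KRT8, KRT18 and KRT19 have no row under these names. SPDEF, FOXA2 and FOXA3 had higher means in MT and LT with these markers, and ELF3 and FOXA1 lower means. Their relation to the share of secretory cells was not tested.

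Genes whose levels ran closest to those of the changed regulators were sought among 11401 genes with a name, by the root mean square (RMS) difference of log2(TPM + 1), centred per gene, over the 10 animals. For ELF3 these were the immediate early gene IER5 (RMS 0.144) and CARHSP1 (0.189), against a spread of ELF3 itself of 0.508. IER5 had means of 63.3, 33.4 and 40.4 TPM in NP, MT and LT, and CARHSP1 of 163, 79.1 and 89.2 TPM. For GRHL3 they were the desmosomal cadherin DSC2 (0.230) and the squamous gene SFN (0.276), against 0.995 of GRHL3 itself. DSC2 had means of 130.2, 67.2 and 181 TPM in NP, MT and LT, and SFN of 237, 83.5 and 228 TPM.

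For EHF the nearest genes were RAPGEF5 (RMS 0.116) and ENTPD4 (0.122), against 0.267 of EHF itself. For OVOL1 they were GIPC1 (0.159) and GATSL3 (0.169), against 0.378. For ESRP1 they were MFSD5 (0.0801) and the translation initiation factor gene EIF1 (0.0913), against 0.244. SFN is in the list of squamous markers, and none of the other nearest genes is in a list used here. Nearness in 10 animals is a description, and with so many genes compared some lie near by number alone.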

How the data were processed

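RNA of the cervix of 10 guinea pigs was sequenced by the authors on an Illumina instrument. Per the labels and the methods of the study, reads were processed with CASAVA 1.8.2, aligned with TopHat2 to cavPor3.69 and counted per gene with HTSeq-count 0.5.4p1. The deposited table holds these read counts and the TPM values that the authors made from them, and both were used as deposited. The members and gene lists were chosen with earlier results of these data known.

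Changes were tested with limma (trend, version 3.58.1, R 4.3.3) on log2(TPM + 1), two-sided, with the stage as the only term. Genes whose mean reached 3 TPM in any stage entered, and P-values were adjusted by the Benjamini-Hochberg method, with a threshold of 0.05. The scripts were tested on simulated data. Alternatives changed the pseudocount (0.1 or 5), filter, scale (square root), scaling, animals and tool (edgeR 4.0.16 with TMM and DESeq2 1.42.0, on counts), the replicate number as a block, or left out each animal. The permutation tests of 2 ratios were added after values were seen. P-values measure the spread between animals. The regulators are all named, as are the 3 most abundant genes of each list, the called genes of the regulator and repressor lists, and the 2 nearest genes of each called regulator. Of the regulator list, the results of some genes that this rule names are not reported here. RefSeq symbols of build mCavPor4.1 matched all 10 regulators. Sequences and positions are not given, since no genome of the build used was at hand.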

Additional observations from a re-analysis of the deposited data

Results flagged for a closer look

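In LT, the ESRP1 level per 100 TPM of EPCAM was 12.4 TPM in LT replicate 1 and 15.4, 15.5 and 15.4 TPM in the other LT animals, so that its distance from them was above Dixon's 95% critical value for a group of 4. Of 40 groups of 4 LT values tested in this way this was the only one, and chance alone gives about 1 in 20.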

How the results depend on the processing

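The log2 changes of single regulators were recomputed under 19 alternatives, which gave 567 values: 499 kept their direction and side of the threshold, 27 lost the call, 20 gained one and 21 turned in sign, all of the last without a call. The number of regulators changed from NP to MT, which was 1, became 2 with a pseudocount of 0.1, 3 with median-ratio scaling, 4 with edgeR and 4 with DESeq2 (17.6%, 18.1%, 18% and 24.7% of all genes), and 1 to 2 when an animal was left out. From MT to LT, the 2 became 1 with no filter, 1 with median-ratio scaling, 0 with edgeR (3 with DESeq2) and 4 with only both stages fitted (19.8%, 29.4%, 29%, 36.2% and 38.8% of all genes), and 0 to 3 when an animal was left out, with 0 without MT replicate 2 or LT replicate 2. From NP to LT, the 3 became 1 to 3 when an animal was left out, with 1 without LT replicate 2. Over the 3 stages, the 5 became 2 with no filter, 6 with median-ratio scaling, 6 with edgeR and 7 with DESeq2 (42%, 52.5%, 51.8% and 59.6% of all genes), and 1 to 5 when an animal was left out, with 1 without LT replicate 2. Leaving out animals also makes the design smaller. With the replicate number as a block, the counts were 1 from NP to MT, 0 from MT to LT, 1 from NP to LT and 1 over the 3 stages, against 12.5%, 13.4%, 43.1% and 40.6% of all genes. The numbers do not pair the animals, since correlations of the deviations from stage means were -0.287 to 0.254 between animals of the same number and -0.271 to 0.311 between others, so that the blocked fit estimates more terms without a gain in pairing.

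The values that turned in sign had no call. With median-ratio scaling, edgeR and DESeq2, in this order, TP63 from NP to MT was 0.058, 0.0057 and 0.010, GRHL2 from NP to LT 0.25, 0.25 and 0.25, KLF5 0.085, 0.080 and 0.082, and EHF 0.20, 0.20 and 0.21. When an animal was left out, the range was -0.33 to 0.19 for TP63 and -0.095 to 0.33 for OVOL1 from NP to MT, and -0.082 to 0.36 for TP63 from MT to LT. From NP to LT it was -0.18 to 0.35 for TP63, -0.21 to 0.14 for GRHL2, -0.031 to 0.98 for GRHL3 and -0.23 to 0.013 for EHF. Apart from scaling, which acts by moving all genes, the cause was not tested. With 3 or 4 animals in a stage, changes such as those of GRHL1, KLF5 and FOXA1, whose 95% confidence intervals from NP to MT leave out 0 while the adjusted P does not pass, could not be settled, and FOXA1 rests on 2 to 33 reads in each pregnant animal.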

Other observations

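Endothelial markers had lower levels in LT. Of the 5 with a row, CDH5, the cadherin of endothelial junctions, fell from NP to MT, CDH5, KDR, TEK and EMCN fell from MT to LT, and all 5 fell from NP to LT by limma, where 12.2%, 22.7% and 41.9% of all genes fell. The sum of the 5 was between 120 and 162 TPM in the NP animals, between 86.7 and 129 TPM in the MT animals and between 47.8 and 79.9 TPM in the LT animals. Each of these calls from NP to LT held with edgeR and DESeq2, while edgeR called 2 of the 5 markers from MT to LT. The calls of CDH5, TEK and EMCN from MT to LT, and of CDH5 from NP to MT, were lost without some single animals, with adjusted P of up to 0.156.

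Among fibroblast markers, LUM, a collagen-binding proteoglycan, fell from NP to MT and rose from MT to LT, and the growth factor receptors PDGFRA and PDGFRB fell from MT to LT and from NP to LT. The call of PDGFRB from MT to LT was lost without MT replicate 2 or 3 or LT replicate 2 or 4 (adjusted P from 0.0732 to 0.101). The fall of LUM was lost without any 1 of 6 animals (adjusted P from 0.0541 to 0.147), and edgeR and DESeq2 called no fibroblast marker from NP to MT. COL1A1 had means of 5401, 4669 and 4805 TPM in NP, MT and LT. Of the 6 smooth muscle markers, none had an unadjusted P under 0.05 from NP to MT or from MT to LT, where 4417 and 5473 of 12645 genes had. In these comparisons edgeR and DESeq2 called none. TAGLN rose from NP to LT by 1.04, a call that was lost without any 1 of 8 animals (adjusted P from 0.0557 to 0.193) and with edgeR. Of the 7 leukocyte markers, limma called 1 from NP to LT, edgeR 2 and DESeq2 3, against 53.1%, 49.4% and 53.7% of all genes. From MT to LT DESeq2 called 1, against 36.2% of all genes. The only call by limma was PTPRC, which fell from NP to LT and was not called without NP replicate 2 (adjusted P = 0.059). The smooth muscle markers summed to 20652 TPM in NP replicate 1, against 8039 and 6859 TPM in the other NP animals.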
